A study of Homo sapiens with 6 samples.

Results

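The aminoacyl-tRNA synthetases, the enzymes that load each transfer RNA with its amino acid, were examined in MOLM-13 leukaemia cells after inhibition of UBE2N with UC-764864. The 36 genes were chosen by symbol, 20 for the cytosolic enzymes and 16 for the mitochondrial ones (symbols ending in 2), among 56638 genes in the deposited count table. All 36 had counts in every library and passed the filter on low counts, among the 13490 genes tested. The list holds no mitochondrial aspartate enzyme. GARS (glycine) and KARS (lysine) each serve both compartments from 1 gene and are counted in the cytosolic set, and mitochondria make glutaminyl-tRNA by amidation rather than with an enzyme of their own.

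MOLM-13 is a human monocytic acute myeloid leukaemia line that carries the KMT2A-MLLT3 fusion. The 2 groups were MOLM-13 cells given 2 µM UC-764864, which the sample titles shorten to UC64, and MOLM-13 cells given DMSO, the solvent. Cells of both groups were collected after 24 h, and 3 poly(A) RNA libraries of each were sequenced. The treated libraries are called UDI0051, UDI0052 and UDI0053, and the DMSO libraries UDI0054, UDI0055 and UDI0056, after the columns of the table. UBE2N is a ubiquitin-conjugating enzyme that builds lysine-63-linked chains. No label says that the libraries came from separate cultures, so the p-values speak only of the spread among these libraries, which may be technical. The study used 1 cell line at 1 dose and 1 time.

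Each synthetase recognises 1 amino acid and its matching tRNAs, activates the amino acid with ATP and transfers it to the tRNA end. The enzymes fall into class I and class II, which have unrelated catalytic folds. In animal cells several cytosolic enzymes are held in a multisynthetase complex on the scaffold proteins AIMP1, AIMP2 and EEF1E1, while the mitochondrial enzymes are encoded by nuclear genes and imported. Many cytosolic synthetase genes are known targets of ATF4, the transcription factor of the amino acid response and the integrated stress response.

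Total counts were 17073654 to 25014437 per UC-764864 library and 16136156 to 24511499 per DMSO library, and a count of 3 corresponded to 0.123 to 0.198 CPM, counts scaled to library size and its TMM factor. Summed levels of 10 myeloid markers were 6382 to 7385 CPM in UC-764864 libraries and 4129 to 4391 CPM in DMSO libraries, most of it lysozyme (LYZ). Of the 9 myeloid markers tested, LYZ was called higher (log2 fold change 0.88) and ITGAM, HOXA9 and CSF1R lower (-1.02, -0.73 and -0.58), with a median of -0.11 over the 9. Lymphoid markers summed to 32.6 to 45.3 CPM in UC-764864 libraries and 49.1 to 56.8 CPM in DMSO libraries, with MS4A1 at 0. Stromal and epithelial markers summed to 2.84 to 3.51 CPM in UC-764864 libraries and 4.50 to 6.06 CPM in DMSO libraries, with KRT19 at 0. Library UDI0055 has no counts in 2 runs of 115 and 3684 rows of the table. None of the 36 genes lies there, and those rows were not tested.

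Most cytosolic synthetase transcripts had higher estimates after UC-764864, and 5 passed the test. In edgeR's quasi-likelihood test with Benjamini-Hochberg adjustment over all 13490 genes, 5 of the 20 cytosolic genes rose and 0 fell, against 5.11% of all genes called higher and 8.13% called lower. The 5 were YARS, MARS, HARS, GARS and LARS, which load tyrosine, methionine, histidine, glycine and leucine. The estimated log2 fold change was above 0 for 19 of the 20, against 51.3% of all genes, and the median over the set was 0.29, against 0.01 over all genes tested. All 3 UC-764864 libraries lay above all 3 DMSO libraries for 13 of the 20, against 19.0% of all genes. With scaling by library size alone the split of calls over all genes shifted to 3.77% higher and 9.42% lower, and 3 cytosolic genes (YARS, MARS and HARS) remained called. The count was 4 with RLE factors, 8 without a filter on low counts, 7 with DESeq2 and 0 with every row as deposited, where 4.49%, 3.4%, 6.35% and 0.157% of all genes were called higher.

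The mitochondrial set had 0 of 16 genes called in either direction by edgeR, against 5.11% of all genes called higher and 8.13% called lower. With 16 genes, a count of 0 is not far from those shares. At an unadjusted p under 0.05 in edgeR 3 were higher (LARS2, EARS2 and NARS2), against 14.9% of all genes. DESeq2 called 1 higher (LARS2), against 6.35% of all genes. Estimates of the mitochondrial set were above 0 for 13 of 16 genes, against 51.3% of all genes, with a median of 0.23 (0.13 without DMSO library UDI0056), and 5 genes had all UC-764864 libraries above all DMSO libraries, against 19.0% of all genes. In bulk RNA, a changed share of cells in a given state and a changed RNA level per cell cannot be told apart.

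**Figure D1:**
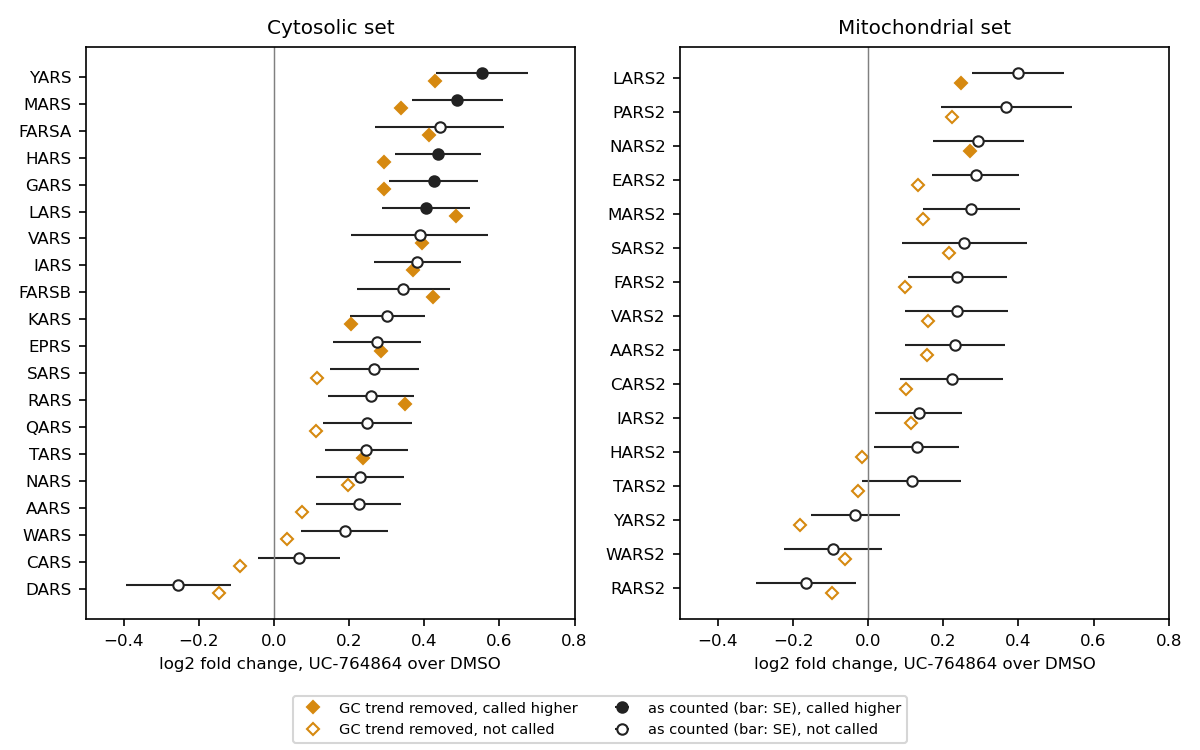
Log2 fold change (UC-764864 over DMSO, x axis) of the 20 cytosolic and 16 mitochondrial synthetase genes, 1 gene per line; circles are edgeR estimates from the counts with bars of 1 SE, diamonds are estimates with each library's GC trend removed, and filled symbols have an adjusted p under 0.05. Estimates from the counts run from -0.25 (DARS) to 0.55 (YARS) in the cytosolic set and from -0.17 (RARS2) to 0.40 (LARS2) in the mitochondrial set.

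YARS, the tyrosine enzyme, had 224, 221 and 199 CPM in the UC-764864 libraries, against 145, 166 and 128 CPM in the DMSO libraries. The lowest treated library was above the highest DMSO library, and YARS averaged 215 ± 13.6 CPM with UC-764864 and 146 ± 18.9 CPM with DMSO (SD, n = 3 each), a 1.47-fold difference (log2 fold change 0.55 ± 0.12 SE, edgeR adjusted p = 0.0172). MARS, which loads methionine onto both initiator and elongator tRNAs, had 189, 168 and 168 CPM with UC-764864, against 128, 137 and 109 CPM with DMSO. The groups did not overlap, and the log2 fold change was 0.49 ± 0.12 SE (edgeR adjusted p = 0.0256). HARS, the histidine enzyme, had 86.8, 80 and 82.6 CPM with UC-764864, against 62.0, 66.3 and 55.8 CPM with DMSO. These groups were also apart, by a log2 fold change of 0.44 ± 0.11 SE (edgeR adjusted p = 0.0300).

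GARS, whose gene supplies the glycine enzyme of cytosol and mitochondria, had 187, 204 and 168 CPM with UC-764864, against 130, 152 and 133 CPM with DMSO. The treated libraries were all higher, with a log2 fold change of 0.42 ± 0.12 SE (edgeR adjusted p = 0.0390). LARS, the leucine enzyme and a sensor of leucine for mTORC1, had 338, 393 and 316 CPM with UC-764864, against 248, 272 and 270 CPM with DMSO. UDI0052 was the highest treated library and no DMSO library reached the lowest treated one (log2 fold change 0.40 ± 0.12 SE, edgeR adjusted p = 0.0413).

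None of these 5 calls held without UC-764864 library UDI0051 or without DMSO library UDI0054, where 0 cytosolic genes were called and 0.452% and 0.69% of all genes were called higher. Adjusted p-values in edgeR then were 0.0914 and 0.0725 for YARS, 0.147 and 0.0854 for MARS, 0.163 and 0.104 for HARS, 0.155 and 0.15 for GARS, and 0.142 and 0.156 for LARS. Without UDI0053 only YARS was called, without UDI0052 MARS and YARS, and without UDI0056 LARS, MARS and YARS, with 1.19%, 2.12% and 3.71% of all genes called higher. Without DMSO library UDI0055 the count was 11 cytosolic and 3 mitochondrial genes (EARS2, LARS2 and MARS2), with 11.1% of all genes called higher. The estimates of the 5 genes stayed between 0.28 and 0.65 in all these fits.

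**Figure D2:**
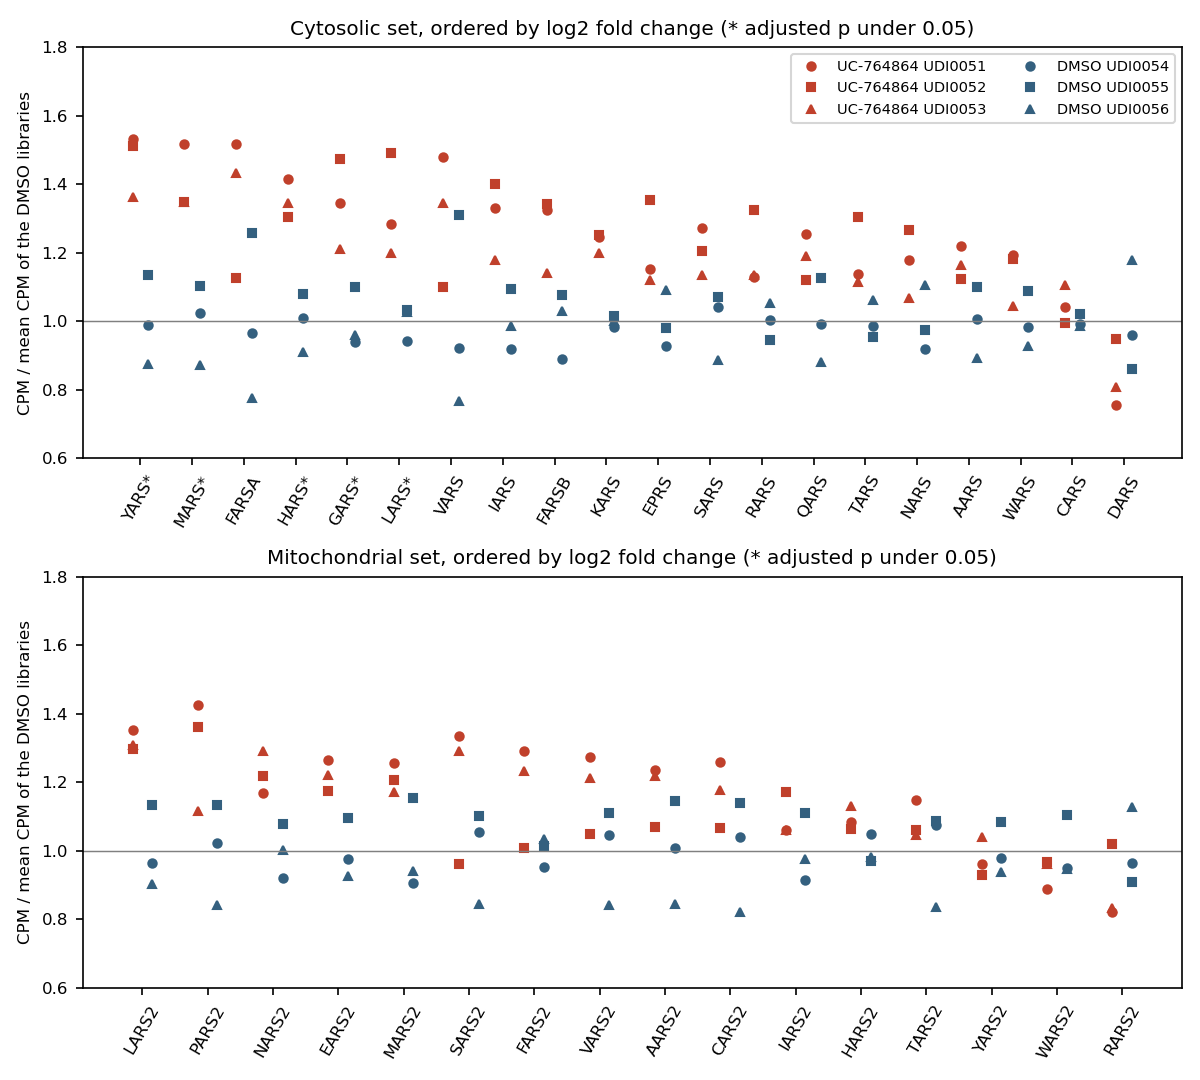
CPM of each synthetase gene in each library divided by its mean over the DMSO libraries (y axis), for the cytosolic set and the mitochondrial set, genes ordered by log2 fold change; asterisks mark an edgeR adjusted p under 0.05. In 13 cytosolic and 5 mitochondrial genes every UC-764864 library lies above every DMSO library.

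The 3 uncalled cytosolic genes with the lowest p followed close behind. IARS, the isoleucine enzyme, had 343, 361 and 304 CPM with UC-764864, against 238, 282 and 254 CPM with DMSO (log2 fold change 0.38 ± 0.12 SE, edgeR adjusted p = 0.0502). KARS, the lysine enzyme of both compartments, had 343, 344 and 329 CPM with UC-764864, against 270, 279 and 275 CPM with DMSO (log2 fold change 0.30 ± 0.10 SE, edgeR adjusted p = 0.0656). In both genes the groups were apart, and DESeq2 called both. The libraries of a group were close together in KARS and more spread in IARS. FARSB, the beta subunit of the phenylalanine enzyme, had 90.2, 91.3 and 77.7 CPM with UC-764864, against 60.6, 73.4 and 70.2 CPM with DMSO (log2 fold change 0.34 ± 0.12 SE, edgeR adjusted p = 0.0813). Its catalytic partner FARSA had 397, 295 and 375 CPM with UC-764864, against 253, 329 and 203 CPM with DMSO. There the groups overlapped, because UDI0052 was low among the treated libraries and UDI0055 high among the DMSO ones (log2 fold change 0.44 ± 0.17 SE, edgeR adjusted p = 0.105). VARS, the valine enzyme, showed the same spread, with 431, 320 and 392 CPM with UC-764864 against 269, 381 and 224 CPM with DMSO.

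The other cytosolic genes had estimates of 0.19 to 0.27, apart from CARS and DARS. WARS, the tryptophan enzyme, which interferon is also known to induce, had 123, 122 and 108 CPM with UC-764864, against 102, 112 and 95.8 CPM with DMSO. Its groups overlapped and its log2 fold change was 0.19 ± 0.12 SE (edgeR adjusted p = 0.290). CARS (cysteine) had a log2 fold change of 0.07 ± 0.11 SE. DARS, the aspartate enzyme, was the only cytosolic gene with an estimate below 0. It had 171, 213 and 182 CPM with UC-764864, against 216, 194 and 265 CPM with DMSO, which overlap (log2 fold change -0.25 ± 0.14 SE, edgeR adjusted p = 0.232).

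In the mitochondrial set LARS2, the leucine enzyme, came closest to the threshold. It had 63.5, 61.0 and 61.5 CPM with UC-764864, against 45.2, 53.3 and 42.4 CPM with DMSO, groups that did not overlap (log2 fold change 0.40 ± 0.12 SE, edgeR adjusted p = 0.0506). EARS2, the glutamate enzyme, had 67.8, 63.0 and 65.6 CPM with UC-764864, against 52.5, 58.8 and 49.7 CPM with DMSO (log2 fold change 0.29 ± 0.12 SE, edgeR adjusted p = 0.115). NARS2, the asparagine enzyme, had 31.0, 32.4 and 34.3 CPM with UC-764864, against 24.5, 28.7 and 26.6 CPM with DMSO (log2 fold change 0.29 ± 0.12 SE, edgeR adjusted p = 0.124). Every treated library exceeded every DMSO library in both. The other mitochondrial genes had estimates from 0.37 (PARS2, proline) down to 0.12 (TARS2, threonine), and 3 were below 0. Those were YARS2 (tyrosine) at -0.03 ± 0.12 SE, WARS2 (tryptophan) at -0.09 ± 0.13 SE and RARS2 (arginine) at -0.17 ± 0.13 SE, all with overlapping groups.

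Summed over members, cytosolic synthetases took 4876, 4877 and 4575 CPM in the UC-764864 libraries, against 3727, 4131 and 3766 CPM in the DMSO libraries. The groups were apart, with means of 4776 ± 174 CPM with UC-764864 and 3875 ± 223 CPM with DMSO (SD, n = 3 each), a 1.23-fold difference. Mitochondrial synthetases summed to 865, 831 and 848 CPM with UC-764864, against 738, 818 and 697 CPM with DMSO, also apart and 1.13-fold higher. The ratio of cytosolic to mitochondrial counts within a library was 5.64, 5.87 and 5.39 with UC-764864, against 5.05, 5.05 and 5.40 with DMSO. These ratios overlapped between the groups, because DMSO library UDI0056 matched the lowest treated library, so a difference between the 2 sets was not resolved with 3 libraries each. Per kilobase of transcript, the median cytosolic gene had 71.5 CPM per kb with UC-764864 and 55.3 CPM per kb with DMSO. The median mitochondrial gene had 15.4 CPM per kb with UC-764864 and 13.3 CPM per kb with DMSO. FARSA was the most abundant per kilobase (196 CPM per kb with UC-764864, 144 CPM per kb with DMSO) and PARS2 the least (2.56 CPM per kb with UC-764864, 1.97 CPM per kb with DMSO).

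The 2 compartments could also be compared enzyme by enzyme, in 17 pairs that load the same amino acid, counting each phenylalanine subunit against FARS2 and EPRS (glutamate and proline) against EARS2 and PARS2. The cytosolic estimate was the larger in 12 pairs and the mitochondrial one in 5. The count ratio within a library was higher in every UC-764864 library than in any DMSO library for 5 pairs (tyrosine, arginine, histidine, isoleucine and tryptophan), lower for 0 and overlapping for 12. No share over other pairs of genes was computed, so these counts have no background to be read against. Pairs that share EPRS or FARS2 are also not independent of each other. An exact 2-sided permutation test of 3 against 3 libraries cannot give a p under 0.1, the value these 5 pairs had before any adjustment over the 17.

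YARS over YARS2 was 6.27, 6.40 and 5.15 with UC-764864, against 3.97, 4.12 and 3.68 with DMSO, the widest shift of the 17 (means 5.94 ± 0.684 with UC-764864 and 3.92 ± 0.225 with DMSO). RARS over RARS2 was 2.42, 2.29 and 2.40 with UC-764864, against 1.84, 1.83 and 1.65 with DMSO. IARS over IARS2 was 2.17, 2.07 and 1.92 with UC-764864, against 1.74, 1.71 and 1.75 with DMSO. In the RARS and IARS pairs both transcripts have nearly the same GC content (41.4% and 41.9%, and 43.6% and 43.8%), whereas YARS is richer than YARS2 (55.7% and 49.9%). WARS over WARS2 was 9.27, 8.41 and 7.48 with UC-764864, against 7.14, 6.80 and 6.76 with DMSO, although neither gene was called. In the leucine pair, LARS and LARS2 had the same estimate of 0.40 and overlapping ratios.

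**Figure D3:**
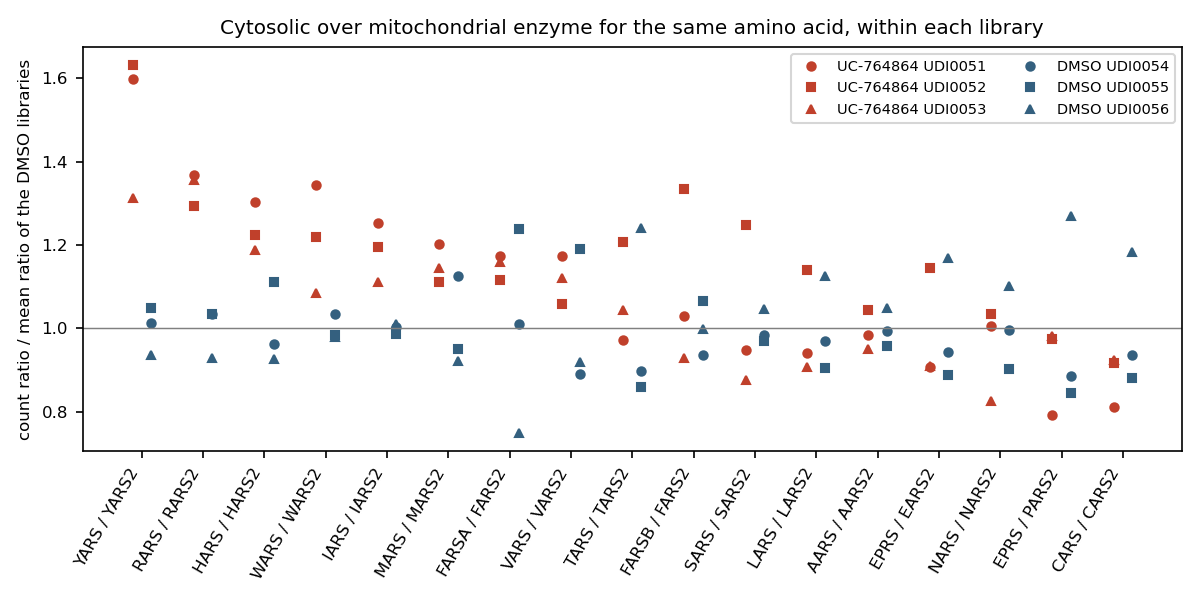
Ratio of counts of a cytosolic synthetase to those of the mitochondrial enzyme for the same amino acid, within each library and divided by the mean ratio of the DMSO libraries (y axis), for 17 pairs (x axis). In 5 pairs, YARS with YARS2 the most, the 3 UC-764864 points lie above the 3 DMSO points. In 12 they overlap, and no share over other pairs of genes was computed.

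HARS and HARS2 stand head to head on chromosome 5, and their shared stretch is shown because the ratio of this pair was nevertheless higher in every treated library. The 84 bases between the start of HARS (minus strand) and the start of HARS2 (plus strand), at chr5:140691371-140691454 of GRCh38.p14 in RefSeq, read on the plus strand:
HARS-HARS2: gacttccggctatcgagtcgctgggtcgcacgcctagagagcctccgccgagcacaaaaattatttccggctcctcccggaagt
The stretch has a GC content of 59.5%. HARS over HARS2 was 2.45, 2.30 and 2.23 with UC-764864, against 1.81, 2.09 and 1.74 with DMSO. Every treated ratio was the higher (means 2.33 ± 0.111 with UC-764864 and 1.88 ± 0.185 with DMSO). HARS2 itself averaged 35.8 ± 1.12 CPM with UC-764864 and 32.7 ± 1.38 CPM with DMSO (SD, n = 3 each), a log2 fold change of 0.13 ± 0.11 SE (edgeR adjusted p = 0.465). HARS and HARS2 share 437 exonic bases on opposite strands in GENCODE v29, and HARS shares 221 of its 7853 with WDR55, also on the opposite strand. Whether reads were counted by strand is not given in the sources used here, so the values of HARS and HARS2 are uncertain to that extent. The same holds for YARS, which shares 396 of its 8212 exonic bases with S100PBP, and for MARS, which shares 519 and 355 of 7028 with ARHGAP9 and DDIT3. S100PBP, ARHGAP9 and DDIT3 had log2 fold changes of -0.11, -0.35 and -0.14. WDR55 had one of 0.33, the same direction as HARS, and was not called (edgeR adjusted p = 0.0978). HARS2 also shares 152 of its 3736 exonic bases on the same strand with ZMAT2, which was called higher (log2 fold change 0.38, edgeR adjusted p = 0.0420), so the ratio of HARS to HARS2 is uncertain on that side too. SARS2 and VARS2 share 1492 of 3231 and 1858 of 8448 exonic bases with genes on their own strand and are also uncertain. The 6 rows of synthetase pseudogenes were at 0 in all libraries.

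By structure, 3 of 18 class I genes rose (YARS, MARS and LARS; median log2 fold change 0.25) and 2 of 17 class II genes (HARS and GARS; median 0.26), with EPRS, which joins both classes in 1 protein, left out, against 5.11% of all genes called higher. Of the 8 enzymes of the multisynthetase complex, LARS and MARS rose, with a median of 0.29. Of the 12 cytosolic genes outside it YARS, HARS and GARS rose, with a median of 0.31. The share over all genes was again 5.11%, and the difference between the 2 groups was not tested. The 3 scaffold genes did not move together. AIMP2, which holds the complex together, had 58.4, 50.9 and 53.7 CPM with UC-764864, against 38.4, 43.6 and 35.6 CPM with DMSO, higher in every treated library (log2 fold change 0.47 ± 0.12 SE, edgeR adjusted p = 0.0304). That call was lost without UDI0051, UDI0053 or UDI0054 (edgeR adjusted p = 0.169, 0.0949 and 0.117). AIMP2 is also uncertain, because 532 of its 1838 exonic bases are shared with EIF2AK1 on the opposite strand, which had a log2 fold change of 0.32. EEF1E1, also known as AIMP3, had 10.5, 15.0 and 11.2 CPM with UC-764864, against 24.6, 22.5 and 49.0 CPM with DMSO. It fell, with DMSO library UDI0056 far above the rest (log2 fold change -1.39 ± 0.27 SE, edgeR adjusted p = 0.0110), and remained called without any single library. The log2 fold change of EEF1E1 was -0.96 without UDI0056 and -0.95 with the GC trend of each library removed. With every row as deposited EEF1E1 was not called (edgeR adjusted p = 0.0720). Its reads are uncertain, since 393 of its 2107 exonic bases also belong to a readthrough transcript on the same strand. AIMP1 had a log2 fold change of 0.04 ± 0.14 SE (edgeR adjusted p = 0.864).

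Genes that act around charging form small lists, whose counts of calls stand against 5.11% of all genes called higher and 8.13% called lower. At an unadjusted p under 0.05 in edgeR, 2011 of the 13490 genes tested were higher (14.9%) and 2237 lower. Of 5 tested genes for tRNA maturation, export and delivery 0 were called by edgeR and 0 had an unadjusted p under 0.05, and the tRNA exporter XPOT had a log2 fold change of 0.01 ± 0.12 SE. EEF1G, in the same list, is listed at 0 in all libraries, while EEF1A1, EEF1B2 and EEF1D had DMSO means of 25408, 1003 and 603 CPM. Why the EEF1G row is empty was not tested, and it is not read as absence of expression. Of 6 mitochondrial partners 0 were called by edgeR and 2 had an unadjusted p under 0.05, both higher. They were the mitochondrial elongation factors TUFM (0.42 ± 0.14 SE, edgeR adjusted p = 0.0667) and TSFM (0.33 ± 0.13 SE, edgeR adjusted p = 0.106). Of 6 genes for proofreading and peptidyl-tRNA release 0 were called by edgeR, and 2 had an unadjusted p under 0.05 in opposite directions, PTRHD1 (-0.44 ± 0.16 SE) and DTD1 (0.26 ± 0.12 SE). In selenocysteine synthesis, SEPSECS, which converts phosphoseryl-tRNA to selenocysteinyl-tRNA, had 13.7, 18.5 and 16.6 CPM with UC-764864, against 24.3, 20.2 and 30.9 CPM with DMSO. It fell by 0.63 ± 0.17 SE on the log2 scale (edgeR adjusted p = 0.0368), a call lost without UDI0051, UDI0053, UDI0054 or UDI0056 (edgeR adjusted p = 0.167, 0.0994, 0.0989 and 0.0625). With the GC trend of each library removed its log2 fold change was -0.27.

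Since ATF4 is known to drive synthetase genes, the known ATF4 targets were set apart. Of 12 such cytosolic genes, 4 rose (GARS, LARS, MARS and YARS), with a median log2 fold change of 0.27, and of the other 8 HARS rose, with a median of 0.32, against 5.11% of all genes called higher. Of ATF4 and its 24 other listed targets, 0 were called higher by edgeR (5.11% of all genes) and 5 fell (8.13% of all genes), with a median of -0.19. At an unadjusted p under 0.05 in edgeR, 2 were higher (14.9% of all genes) and 11 lower (2237 of the 13490 genes tested). With the GC trend of each library removed, 13 of the 25 were called lower and 1 higher, and with every row as deposited 1 was called lower and 0 higher, against 15.3% and 16% of all genes under the first setting and 0.891% and 0.157% under the other. ATF4 itself had 571, 539 and 584 CPM with UC-764864, against 638, 586 and 601 CPM with DMSO. All treated libraries were slightly lower, and the difference did not pass the test (log2 fold change -0.11 ± 0.10 SE, edgeR adjusted p = 0.498). These are RNA levels. ATF4 protein and activity were not measured, and ATF4 was not tested as a cause.

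The 5 that fell were TRIB3, a pseudokinase of the stress response, SLC7A11, the cystine importer, SLC38A2, a neutral amino acid transporter, the transcription factor CEBPB, and STC2, a secreted glycoprotein. TRIB3 had 65.9, 58.3 and 73.2 CPM with UC-764864, against 102, 104 and 98.4 CPM with DMSO (log2 fold change -0.62 ± 0.12 SE, edgeR adjusted p = 0.0103). SLC7A11 had 9.19, 8.93 and 9.16 CPM with UC-764864, against 16.6, 13.7 and 24.3 CPM with DMSO (log2 fold change -0.99 ± 0.20 SE, edgeR adjusted p = 0.0116). SLC38A2 had 157, 194 and 178 CPM with UC-764864, against 272, 257 and 352 CPM with DMSO (log2 fold change -0.73 ± 0.14 SE, edgeR adjusted p = 0.0104). In all 3 the treated libraries lay below every DMSO library. With the GC trend of each library removed, the log2 fold changes of SLC7A11 and SLC38A2 were -0.44 and -0.42. Those of TRIB3, CEBPB and STC2 were then -0.68, -0.59 and -0.76, and all 5 genes remained called lower. Without that correction CEBPB and STC2 had log2 fold changes of -0.67 ± 0.14 SE and -0.60 ± 0.17 SE (edgeR adjusted p = 0.0150 and 0.0417). Among those not called, CHAC1, SESN2 and ATF3 had log2 fold changes of -0.73, -0.40 and -0.40 (edgeR adjusted p = 0.0621, 0.0701 and 0.0724). Without UDI0051 only SLC7A11 of the 25 was called lower, and without UDI0053 3 genes were, against 2.03% and 3.31% of all genes. STC2 was also lost without UDI0052 or UDI0054 (edgeR adjusted p = 0.086 and 0.153). Without UDI0055 7 were called lower and 2 higher, against 12.6% and 11.1% of all genes.

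**Figure D4:**
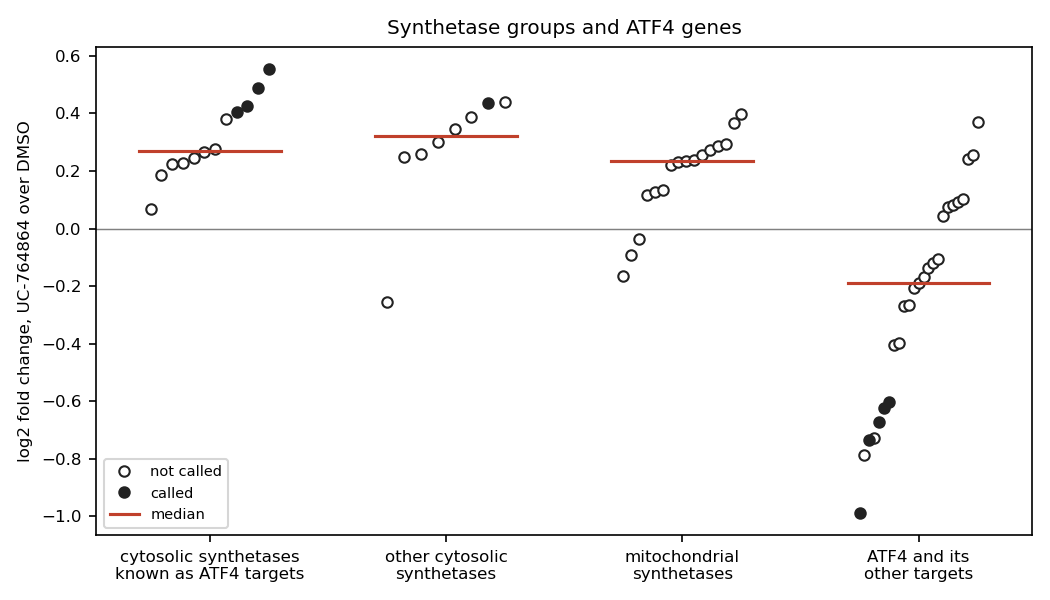
Log2 fold change (UC-764864 over DMSO, y axis) of each gene in groups along the x axis: cytosolic synthetases known as ATF4 targets, the other cytosolic synthetases, the mitochondrial synthetases, and ATF4 with its non-synthetase targets; filled points have an edgeR adjusted p under 0.05 and lines mark medians. Group medians are 0.27, 0.32, 0.23 and -0.19.

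The RefSeq promoter windows, 250 bases before to 50 from each gene's start, show where the letters of a CARE, the composite element that ATF4 binds, occur beside these starts. RefSeq (GRCh38.p14) gave at least 1 window for 30 of the 36 genes, and 2 windows, for 2 starts, for 5 of the cytosolic and 4 of the mitochondrial genes; DARS, LARS, VARS, YARS, AARS2 and VARS2 had none. The letters TGATGNAA, or TTNCATCA on the other strand, occurred in a window of 7 of 16 cytosolic genes (43.8%) and of 1 of 14 mitochondrial genes (7.14%), against 4.46% of the 27305 RefSeq genes with a window. By window, these were 7 of 21 cytosolic and 1 of 18 mitochondrial windows. All 7 belong to the 10 known ATF4 targets with a window, and 0 of the 6 others had a match. The 30 bases around each match, on the strand of the gene and with the match in capitals, were:
AARS: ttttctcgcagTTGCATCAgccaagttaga
CARS: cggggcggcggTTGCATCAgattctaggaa
GARS: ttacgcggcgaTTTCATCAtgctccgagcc
IARS: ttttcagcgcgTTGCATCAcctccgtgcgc
MARS: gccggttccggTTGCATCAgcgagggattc
NARS: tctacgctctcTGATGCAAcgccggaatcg
TARS: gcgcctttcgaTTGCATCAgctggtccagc
YARS2: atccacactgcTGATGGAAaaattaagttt
They lie at chr16:70289675-70289704 (AARS, minus strand), chr11:3057407-3057436 (CARS, minus), chr7:30594834-30594863 (GARS, plus), chr9:92293692-92293721 (IARS, minus), chr12:57488053-57488082 (MARS, plus), chr18:57621804-57621833 (NARS, minus), chr5:33440956-33440985 (TARS, plus) and chr12:32756076-32756105 (YARS2, minus) of GRCh38.p14. Except in AARS and YARS2, where it begins at -187 and -197 from the start, each match begins within 33 bases of a start of its gene. The 7 cytosolic genes with a match had estimates from 0.07 (CARS) to 0.49 (MARS), GARS and MARS among them were called, and HARS was called with no match in its window. A match in these letters is not a measured site. The E-box CACGTG, a palindrome, occurred in a window of 1 of 16 cytosolic genes (IARS, apart from its CARE letters), of 3 of 14 mitochondrial genes (CARS2, EARS2 and MARS2) and of 8.77% of all RefSeq genes with a window.

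Within each treatment the synthetase genes shifted with the GC content of their transcripts. Across the 36 genes, the correlation of GC content with a library's deviation from its own group mean was 0.867, -0.875 and 0.503 in the UC-764864 libraries and 0.592, 0.685 and -0.865 in the DMSO libraries, given as a description, because genes of 1 library share its depth and preparation and the deviations within a group sum to 0. Over 12167 genes with a GC value these correlations were 0.481, -0.672 and 0.408 with UC-764864 and 0.258, 0.537 and -0.678 with DMSO. UDI0052 and UDI0056, 1 library of each group, were low in GC-rich members such as FARSA (61.4%) and VARS (62.6%), the 2 cytosolic genes with the largest SE, and high in GC-poor members such as DARS (41.2%). Median GC content was 50.2% in the cytosolic set, 51.2% in the mitochondrial set and 48.8% over all genes tested.

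**Figure D5:**
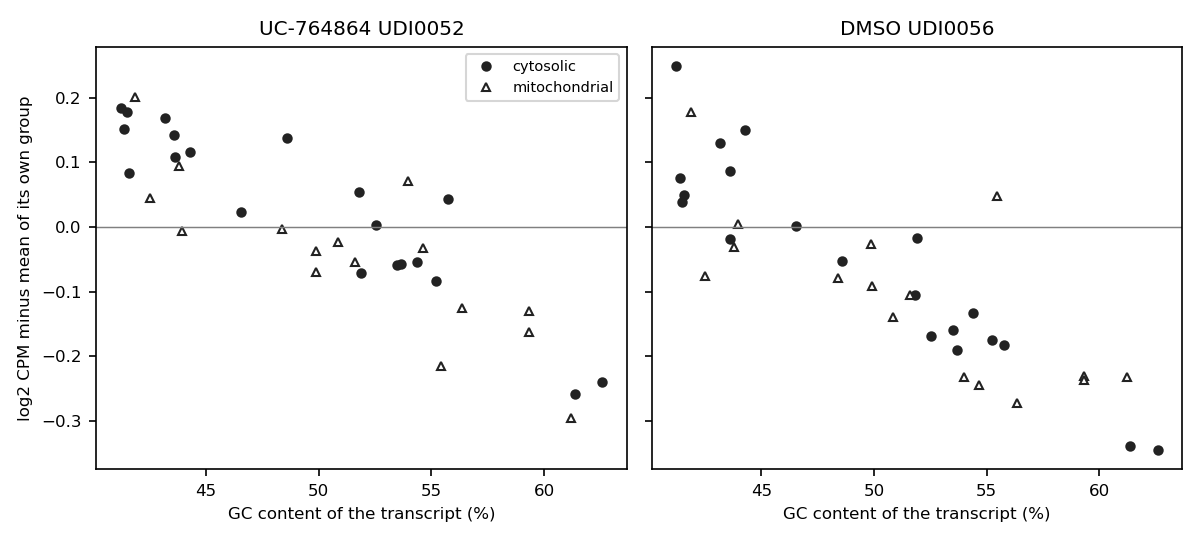
Log2 CPM of each synthetase gene minus its own group mean (y axis) against the GC content of its transcript (x axis, %) in UC-764864 library UDI0052 and DMSO library UDI0056, the library of each group with a negative correlation; filled circles are cytosolic and open triangles mitochondrial genes. Both panels slope down, with correlations of -0.875 and -0.865 over 36 genes.

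For the GC correction, each library's trend was fitted to deviations from each gene's mean over all 6 libraries, not over its own group. A GC-related difference between the treatments was therefore removed as well. With the GC trend of each library removed, edgeR called 13 cytosolic genes higher (EPRS, FARSA, FARSB, GARS, HARS, IARS, KARS, LARS, MARS, RARS, TARS, VARS and YARS) and 2 mitochondrial ones (LARS2 and NARS2), against 16% of all genes called higher. The median of the cytosolic set was then 0.29 and that of the mitochondrial set 0.12, against 0.23 without the correction. FARSA reached a log2 fold change of 0.41 (edgeR adjusted p = 0.00306) and VARS 0.39 (edgeR adjusted p = 0.00765). Over all 17 pairs the cytosolic estimate was then the larger in 13 and the mitochondrial one in 4, and the median gap between the estimates was 0.24, against 0.13 without the correction. The gap exceeded 0.2 in 9 pairs, 4 of the 5 whose count ratios were higher in every treated library and 5 whose ratios overlapped. It was widest for YARS (0.43) with YARS2 (-0.18) and for RARS (0.35) with RARS2 (-0.10). LARS and LARS2, equal without the correction, were at 0.49 and 0.25. WARS and WARS2 were at 0.03 and -0.06. Without UDI0052 and UDI0056, 3 cytosolic genes were called (HARS, MARS and YARS, against 4.07% of all genes called higher), and GARS and LARS were not (edgeR adjusted p = 0.0934 and 0.0744). GC content was not tested as a cause of the difference between the treatments.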

How the data were processed

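Counts were the only measurement. The table the authors deposited gives raw counts per gene, from 75 bp paired ends of poly(A) RNA per the labels' protocols. FastQC 0.11.7, HISAT2 2.0.5, featureCounts 1.5.2 and GRCh37 are named, without roles, in the submitters' processing notes; the annotation release and strand setting are not stated there. The series text also spells the compound UC-744864. Columns carry a treatment and no replicate number.

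Of 56638 rows, 3799 that are empty in UDI0055 were read as missing, and 52839 were kept. R 4.3.3 with edgeR 4.0.16 filtered genes (filterByExpr), scaled them (TMM factors 0.978 to 1.03) and tested treatment with the quasi-likelihood F test, adjusted by Benjamini-Hochberg at 0.05; DESeq2 1.42.0 was an alternative. Log2 CPM used a prior count of 2. The procedure was tested on simulated data. GC content and length came from GENCODE v29 transcripts (GRCh38), matched by symbol or RefSeq synonym for 90.2% of the genes tested. A library's GC trend was a lowess curve (span 0.3) against GC content of log2 CPM minus each gene's mean over all 6 libraries. The curve entered the fit as a fixed offset. Depth sets the precision, and floors of 3 counts cover counting error only, since reads carry no molecular identifiers.

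Members and lists were chosen with earlier results of these data known. Values in every library are given for called members, WARS, GARS, KARS and the 3 uncalled members of each set with the lowest p. FARSA, VARS and DARS were added after their values were seen. Pathway genes are named if called, with up to 3 uncalled per list by p; ATF4, XPOT and AIMP1 were added. A further marker list is not reported here.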

Additional observations from a re-analysis of the deposited data

How the results depend on the processing

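Estimates of the 36 synthetase genes mostly kept their direction. Those that reversed were CARS (-0.089), HARS2 (-0.018) and TARS2 (-0.027) with the GC trend removed, TARS2 (-0.0027) without UDI0052 and UDI0056, and YARS2 (0.028) without UDI0055 (-0.0775 to 0.0278 with 1 library left out). Calls over all genes numbered 1787, against 147 with every row as deposited (22 higher, 125 lower) and 3811 with the GC trend removed (1950 higher, 1861 lower; 656 and 1025 on the same 12167 genes without it). They numbered 340 to 3254 when 1 library was left out. Cytosolic calls, 5 at first, numbered 3 by library size alone, 8 with no filter, 0 with every row as deposited, 3 without UDI0052 and UDI0056, 13 with the GC trend removed, and 0 to 11 with 1 library left out. LARS was lost with RLE factors (adjusted p = 0.0524). Mitochondrial calls, 0 at first, numbered 1 with DESeq2, 2 with the GC trend removed and 0 to 3 with 1 library left out. The median of the mitochondrial set was 0.13 to 0.32 with 1 library left out. The ratio of the summed sets differed by 0.12 on the log2 scale, 0.11 by mean log2 CPM and 0.09 to 0.16 with 1 library left out (chosen after seeing the data). Why the counts of calls move was not tested. No paired analysis was possible because the columns carry no replicate numbers. Precision rests on 3 libraries per group and on the count of each gene.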
